A study of Mus musculus with 4 samples.

Results

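The Polycomb and Trithorax genes are a set of 38 named genes, all 38 of which were found by symbol among the 24982 genes of the count table. They encode the enzymes and core partners that write, read and erase methylation of histone H3 at lysines K27 and K4. RNA from forebrain, micro-dissected from mouse embryos at stage E10.5, was sequenced in 2 groups of 2 libraries. Controls were Chd7 +/f, with 1 floxed allele of the chromatin remodeller gene Chd7 and no Cre in its label. The conditional knockout (cKO) was Sox1 cre+/-; Chd7 f/f, in which the Cre recombinase is named for Sox1, a gene of early neural tube progenitors. The Cre allele is named for the cKO libraries alone, so its own effect and that of Chd7 loss cannot be told apart. Nothing in the labels tells whether 1 embryo or several made up a library. The p-values below therefore rest only on how much these 4 libraries vary, and that variation may be technical. Whole forebrain was sequenced, so fewer cells of a type and less RNA per cell cannot be told apart.

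Polycomb group proteins keep genes silent and work in 2 main complexes. Polycomb repressive complex 2 (PRC2) methylates K27 of histone H3, and Polycomb repressive complex 1 (PRC1) binds that mark and ubiquitinates histone H2A. Trithorax group proteins oppose them, and the COMPASS complexes methylate K4 of histone H3 at promoters and enhancers. Demethylases of the Kdm6 family remove the K27 mark, and those of the Kdm5 family remove the K4 mark that COMPASS places. In the embryonic forebrain this balance is known for holding developmental regulators silent until progenitors reach the right time and place. The title of the series names both marks beside CHD7, and the comparison here was whether RNA levels of the genes that write, read and erase them differed in the cKO forebrain.

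None of the 38 members was called higher or lower in the cKO forebrain. All 38 passed the count filter and were tested within a fit over 14235 genes (edgeR quasi-likelihood test, Benjamini-Hochberg adjusted p under 0.05). Over all genes, 3.7% were called, 1.57% higher and 2.13% lower. At an unadjusted p under 0.05 there were 4 of 38 members (3 lower and 1 higher), against 17.5% of all genes tested. DESeq2 and limma-voom also called 0 members, and the authors' deposited table listed 0 members at an adjusted p under 0.05, the lowest being 0.111 for Bmi1. The median log2 fold change (cKO over control) of the members was -0.002, against 0 for all genes tested, and the members ranged from -0.75 to 0.32. The median size of a member's difference between groups was 0.072 on the log2 scale. Between replicates the median difference was 0.06 in control and 0.07 in cKO libraries. The replicate differences used log2 CPM, which are counts scaled to a common library total, with a prior count of 2. The difference between groups was the edgeR log2 fold change. Over all genes the same 3 values were 0.122, 0.117 and 0.11. The first of the 3 compares groups of 2 libraries and the others compare single libraries, so their sizes are not directly comparable.

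The 95% intervals describe the difference between groups only as far as the spread of these 4 libraries allows. As that spread may be technical, they set no bound on a difference across embryos. For 35 of 38 members the 95% interval of the fold change lay within 1.5-fold in either direction, and for 31 it lay within 1.2-fold. Among all genes tested, 63.4% had an interval within 1.5-fold and 29% within 1.2-fold. The 3 members whose interval reached beyond 1.5-fold were Phf19, Phf1 and Cbx8, all of them under 20 CPM. Precision went with level: the standard error (SE) of the log2 fold change had a median of 0.183 for the 5 members under 20 CPM and 0.053 for the other 33. The groups did not overlap for 15 members, 3 with both cKO libraries above both controls and 12 with both below. Over all genes those shares were 24.3% above and 24% below, 48.3% together, against 39.5% of the members.

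**Figure D1:**
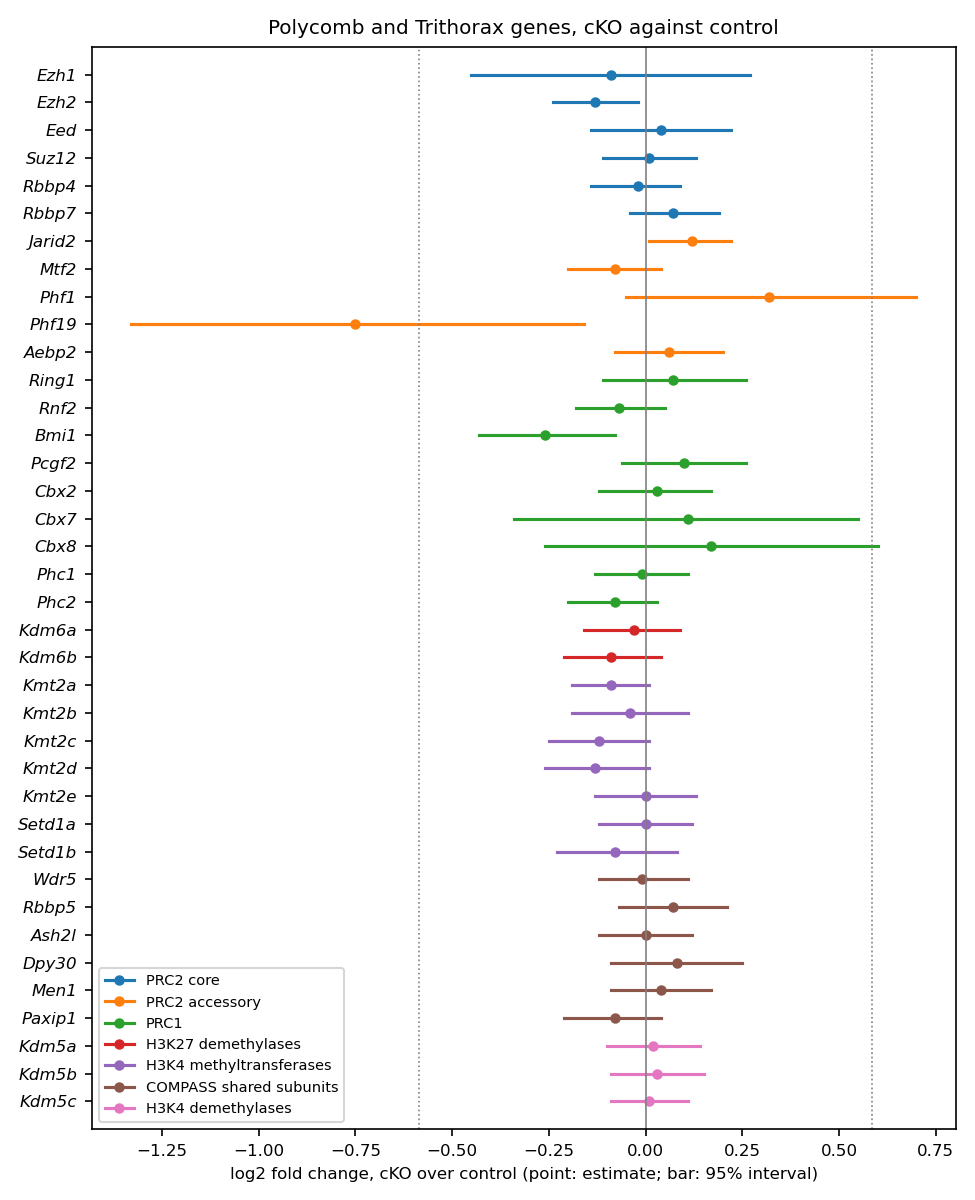
Log2 fold change of each member, cKO over control, with its 95% interval (bar), coloured by complex. The dotted lines mark 1.5-fold in either direction, and only Phf19, Phf1 and Cbx8 have an interval that crosses one of them.

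**Figure D2:**
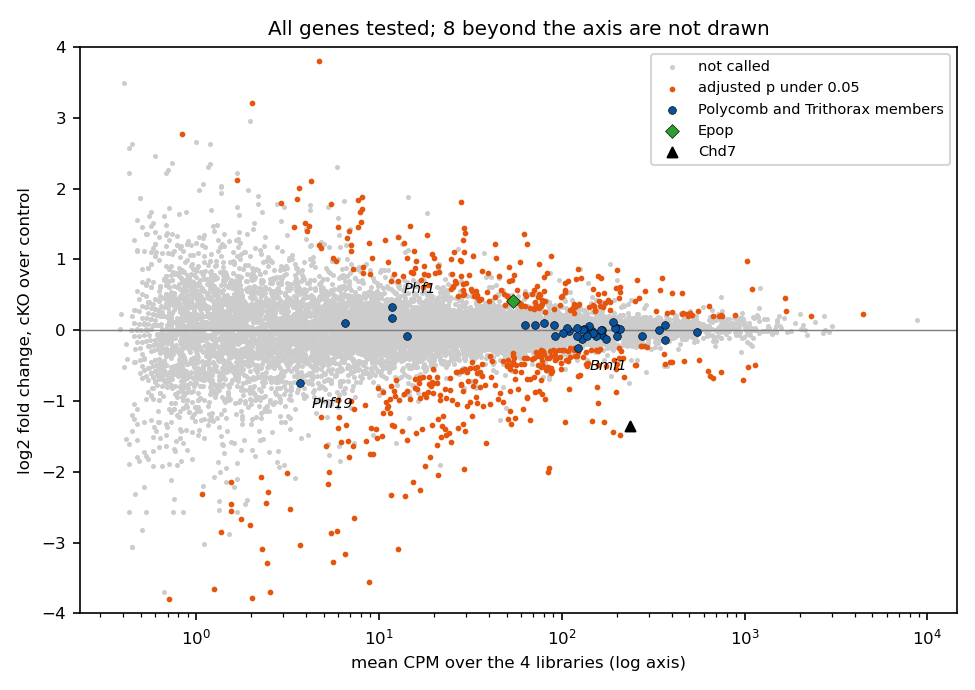
Log2 fold change (cKO over control) against mean CPM (log axis) for the genes tested, with called genes in orange and the members in blue; 8 genes beyond a log2 value of 4 in size are not drawn. Of the members, 33 lie near 0 at 20 CPM or more and Phf19 lies lowest, while Chd7 (black triangle) is at -1.35 and Epop (green diamond), described further on, at 0.41.

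The targeted gene and the depth were checked first. Chd7 was at 339 and 345 CPM in the control libraries and 136 and 132 CPM in the cKO libraries, a fall of 2.56-fold (log2 fold change -1.35, SE 0.05, edgeR adjusted p = 8.7e-05). Total counts ranged from 16581252 to 17096522 per library. The forebrain marker Emx2 was present in all 4 libraries, at 179 and 130 CPM in the controls and 154 and 138 CPM in the cKO. Of the 10 neural progenitor markers 4 were lower, Pax6, Sox3 and Sox1 among them. Of the 10 neuronal markers 4 were lower, Elavl3, Mapt and Tubb3 among them, with a summed level of 1030 and 839 CPM in the controls and 600 and 615 CPM in the cKO. Of 9 tested erythroid markers 6 were lower, Hbb-y, Hba-x and Hbb-bh1 among them, with sums of 2860 and 3080 against 1900 and 1820 CPM. The proliferation markers had 0 of 10 called and summed to 4870 and 4800 CPM in the controls and 4700 and 4840 CPM in the cKO. None of the endothelial (10 tested), neural crest and mesenchyme (9), macrophage (10) or surface ectoderm (7) markers was called, while at an unadjusted p under 0.05 there were 6, 2, 0 and 1. Their sums in control replicates 1 and 2 and cKO replicates 1 and 2 were 348, 332, 294 and 297 CPM (endothelial), 533, 622, 598 and 382 CPM (mesenchyme) and 38.6, 35.8, 32.7 and 26.2 CPM (macrophage). The surface ectoderm sum was 18.5 CPM in control replicate 1 and 55.7 to 80.6 CPM in the other 3 libraries. The adult globin genes Hba-a1, Hba-a2, Hbb-bt and Hbb-bs had 0 counts in every library, and the keratins Krt5, Krt14 and Krt15 had at most 3. These lists were measured beside the members, and their part in the members' values was not tested.

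The CpG content of the members' promoters, which the choice of members did not use, was close to that of the other genes of these pathways. RefSeq promoter windows (GRCm38.p6) were matched by symbol for 31 of 38 members, in 42 windows, and the 250 bases before each start were read. The median window held 21 CpG, against 6 over the 32841 windows of the whole table. A ratio of observed to expected CpG above 0.6 was found in 76.2% of the members' windows and in 34% of all windows. The share was 77% in 61 windows of 44 other pathway genes and 63.5% in 14126 windows of genes that passed the count filter, with a median of 18 and 15 CpG. These shares are a description, with no test. The members' share was close to that of the other pathway genes and above that of the genes that passed the count filter. The windows of Bmi1 and Suz12 are shown as examples, that of the PRC1 gene with the smallest p in the comparison and that of a PRC2 core gene with a fold change near 1, with each CpG in capitals, 5′ to 3′. The Bmi1 window is chr2:18676768-18677017 on the plus strand, with 21 CpG and a ratio of 0.71. The Suz12 window is chr11:79992856-79993105 on the plus strand, with 37 CpG and a ratio of 1.1.
Bmi1: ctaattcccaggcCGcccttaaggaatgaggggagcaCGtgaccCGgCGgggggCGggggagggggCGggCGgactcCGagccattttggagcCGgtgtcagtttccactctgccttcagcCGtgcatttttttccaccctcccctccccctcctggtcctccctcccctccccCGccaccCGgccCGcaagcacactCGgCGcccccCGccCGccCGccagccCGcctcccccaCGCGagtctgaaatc
Suz12: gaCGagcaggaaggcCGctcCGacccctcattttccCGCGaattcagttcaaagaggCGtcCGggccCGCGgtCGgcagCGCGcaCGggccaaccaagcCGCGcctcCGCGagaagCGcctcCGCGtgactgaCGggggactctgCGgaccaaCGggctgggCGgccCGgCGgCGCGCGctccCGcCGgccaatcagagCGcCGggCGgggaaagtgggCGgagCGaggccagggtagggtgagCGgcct

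Of the 6 PRC2 core genes 0 was called, and Rbbp7, Ezh2 and Rbbp4 were the most abundant members per length, while Ezh1 was among the least abundant. Levels between genes are compared as RPKM, which is CPM divided by exon length in kilobases. Ezh2 encodes the main K27 methyltransferase of dividing cells and lies on chromosome 6 from 47530274 to 47595270 (GRCm38). It was at 399 and 373 CPM in the control libraries and 351 and 354 CPM in the cKO libraries. Both cKO values were below both controls, by a log2 fold change of -0.13 (95% interval -0.24 to -0.02, edgeR adjusted p = 0.216). As a ratio of cKO to control the interval ran from 0.844 to 0.987, without adjustment for the number of genes tested. Ezh1, the related enzyme of non-dividing cells, was at 13.4 and 16.1 CPM in the controls and 14.8 and 13 CPM in the cKO, and its groups overlapped (log2 fold change -0.09, 95% interval -0.45 to 0.27). Per length, Ezh2 made up 97.2% to 97.8% of the summed RPKM of both enzymes in each of the 4 libraries.

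The partners of the enzymes were close to equal in both groups. Eed, which binds trimethylated K27, had a log2 fold change of 0.04 (95% interval -0.14 to 0.22), and Suz12, the scaffold of the complex, one of 0.01 (-0.11 to 0.13). The histone-binding proteins Rbbp4 and Rbbp7 are shared with other chromatin complexes. Rbbp4 had a log2 fold change of -0.02 (-0.14 to 0.09). Rbbp7, on chromosome X, was at 356 and 361 CPM in the controls and at 363 and 391 CPM in the cKO (0.07, -0.04 to 0.19, adjusted p = 0.51), both above the controls. It was the most abundant member per length, at a mean of 164 RPKM over the 4 libraries, followed by Ezh2 at 132 and Rbbp4 at 125. In GENCODE M21, 35.8% of the exon bases of Rbbp4 and 12.6% of those of Eed are shared with genes on the opposite strand. The counting set no strand option. Ezh2 and Rbbp4 were not apart in every library: in cKO replicate 2 both were at 126 RPKM.

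The PRC2 accessory genes held the members with the largest differences in either direction, and 0 of 5 was called. Phf19 encodes 1 of the 3 Polycomb-like proteins, which bring PRC2 to chromatin, and lies on chromosome 2 from 34893752 to 34914353. It had 75 and 82 counts in the control libraries (4.5 and 4.83 CPM) and 47 and 46 counts in the cKO libraries (2.83 and 2.72 CPM). Both cKO values were below both controls, with a 1.68-fold difference (log2 fold change -0.75, 95% interval -1.33 to -0.16, edgeR adjusted p = 0.179). It was the least abundant member per length, at a mean of 0.994 RPKM. Leaving out each library in turn gave values from -0.8 to -0.69, with adjusted p from 0.332 to 0.474.

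The other Polycomb-like genes had values on either side of 0. Phf1 was at 11 and 10.1 CPM in the controls and 11.9 and 14.4 CPM in the cKO (log2 fold change 0.32, 95% interval -0.05 to 0.7, adjusted p = 0.358). Of its exon bases, 32.1% are shared with genes on the opposite strand in GENCODE M21, among them Cuta, and the counting set no strand option. Mtf2, the most abundant of the 3, was at 159 CPM in both controls and at 154 and 147 CPM in the cKO, both lower (-0.08, -0.2 to 0.04). Its share of the summed RPKM of the 3 genes was 87% and 87.6% in the controls and 86.8% and 84.2% in the cKO, so the Polycomb-like RNA was mostly Mtf2 in every library.

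Jarid2 and Aebp2 encode the partners of the alternative PRC2 assembly. Jarid2 was at 184 and 183 CPM in the controls and at 197 and 201 CPM in the cKO. Its cKO libraries lay above both controls by a log2 fold change of 0.12 (95% interval 0.01 to 0.22, edgeR adjusted p = 0.252). Aebp2 had a log2 fold change of 0.06 (-0.08 to 0.2), and its groups overlapped.

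Of the 9 PRC1 genes 0 was called, and Bmi1 had the smallest p of all members. Bmi1 encodes a Polycomb ring finger protein that pairs with the ubiquitin ligase and lies on chromosome 2 from 18677018 to 18686629. It was at 136 and 133 CPM in the control libraries and at 104 and 121 CPM in the cKO libraries. Both cKO values were below both controls, by a log2 fold change of -0.26 (95% interval -0.43 to -0.08, edgeR adjusted p = 0.124). The cKO libraries differed from each other by more than cKO replicate 2 did from either control. Without cKO replicate 1 the value was -0.15 (adjusted p = 0.416) and without cKO replicate 2 it was -0.37 (adjusted p = 0.0739). Its paralogue Pcgf2 was at 73.9 and 80.9 CPM in the controls and at 85.1 and 80.3 CPM in the cKO, with overlapping groups (0.1, -0.06 to 0.26). In the family of 6 Pcgf genes, Bmi1 held 32% and 30.9% of the summed RPKM in the controls and 25.3% and 28% in the cKO, and Pcgf2 held 22.1% and 23.9%, then 26.2% and 23.6%. Bmi1 led Pcgf2 in both controls and in cKO replicate 2, while in cKO replicate 1 Pcgf2 was ahead.

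The ubiquitin ligase genes of PRC1 were near equal between groups. Rnf2, the main ligase, was at 174 and 167 CPM in the controls and at 161 and 164 CPM in the cKO (log2 fold change -0.07, 95% interval -0.18 to 0.05), and Ring1 had a value of 0.07 (-0.11 to 0.26). Rnf2 was the more abundant per length in every library, with 57.6% to 61.3% of the summed RPKM of both. The polyhomeotic genes Phc1 and Phc2 encode proteins that join PRC1 units through a SAM domain. Phc2 was at 205 and 208 CPM in the controls and at 200 and 189 CPM in the cKO (-0.08, -0.2 to 0.03, adjusted p = 0.46), and Phc1 was at 110 and 111 CPM in the controls and 110 CPM in both cKO libraries (-0.01, -0.13 to 0.11). For Rnf2, Phc1 and Phc2, as for Bmi1, both cKO libraries were below both controls, for Phc1 by a margin lost in rounding.

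The Cbx genes encode the PRC1 chromodomain subunits that read methylated K27. Cbx2 was at 182 and 204 CPM in the controls and at 197 and 196 CPM in the cKO, within the range of the controls (log2 fold change 0.03, 95% interval -0.12 to 0.17). Cbx8 was at 12.3 and 9.77 CPM and then 13.8 and 11.1 CPM (0.17, -0.26 to 0.6), and Cbx7 was at 6.18 and 6.42 CPM and then 7.17 and 6.39 CPM (0.11, -0.34 to 0.55). Cbx6, which is no member, was at 90.5 and 90.3 CPM in the controls and 87.7 and 87 CPM in the cKO. Per length Cbx2 led these 4 genes in every library, with 69.3% to 72.3% of their summed RPKM, followed by Cbx6 with 20.7% to 22.6%. Cbx7, the reader known from embryonic stem cells, held 2.99% to 3.38%.

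**Figure D3:**
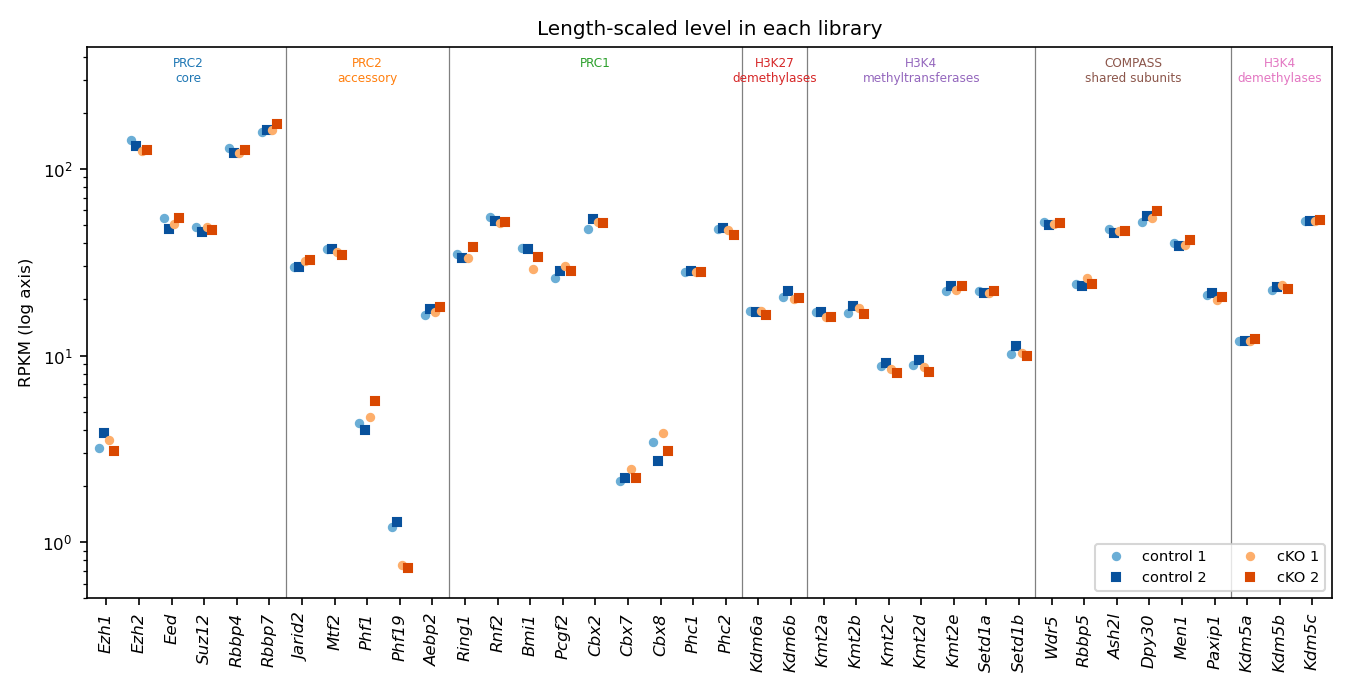
RPKM of each member in each library (log axis), with control libraries in blue and cKO libraries in orange, grouped by complex. The members span from about 1 RPKM for Phf19 to over 150 RPKM for Rbbp7, and the 4 libraries lie close together for most of them.

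**Figure D4:**
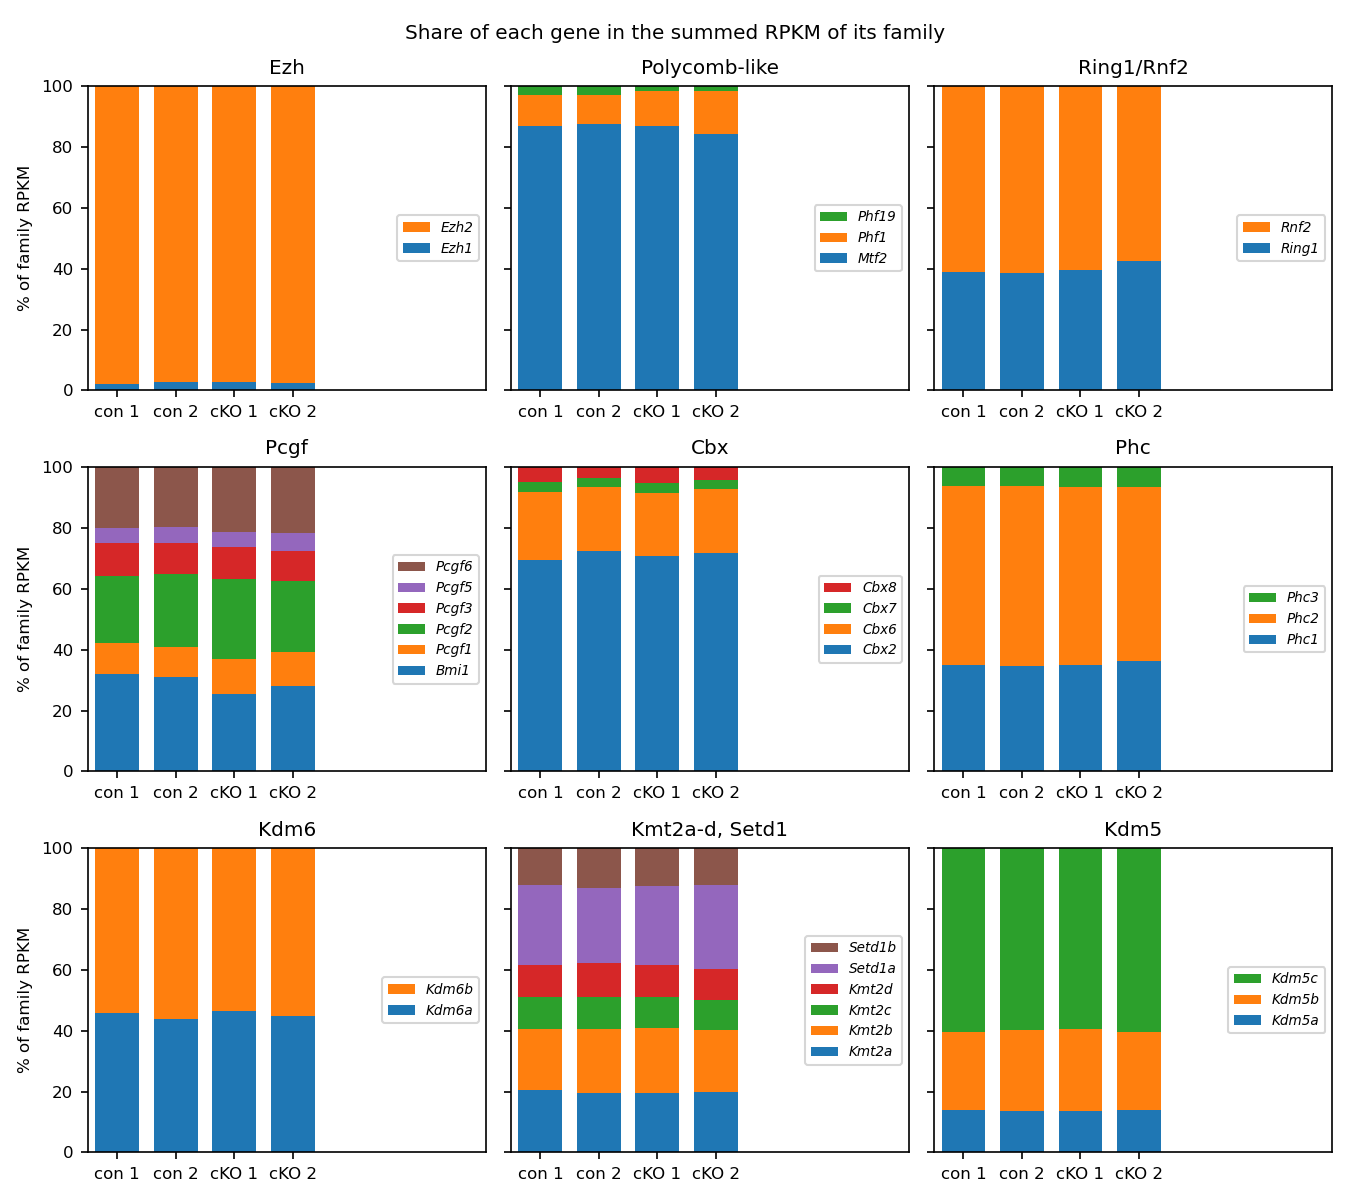
Share of each gene in the summed RPKM of the family members drawn, in percent, with 1 stacked bar per library (con, control; cKO, conditional knockout). Ezh2, Mtf2, Cbx2 and Kdm5c lead the genes drawn beside them in every library.

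The demethylases of K27 were also not called, 0 of 2. Kdm6a, on chromosome X, encodes a demethylase that also sits in COMPASS complexes with Kmt2c or Kmt2d. It was at 103 and 102 CPM in the controls and at 103 and 97.8 CPM in the cKO (log2 fold change -0.03, 95% interval -0.16 to 0.09). Kdm6b, an inducible demethylase of neuronal differentiation, was at 138 and 147 CPM in the controls and at 133 and 135 CPM in the cKO, so that both cKO libraries were lower (-0.09, -0.21 to 0.04, edgeR adjusted p = 0.475). The balance of writers and erasers was computed per library as the summed RPKM of Ezh1 and Ezh2 over that of Kdm6a and Kdm6b. It was 3.81 and 3.49 in the controls and 3.44 and 3.52 in the cKO, and the groups overlapped.

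Of the 7 genes of the K4 methyltransferase group 0 was called. Their median log2 fold change was -0.077 and the lowest value was -0.13. All 7 values were at or below 0, where 7125 of all 14235 genes were negative, but Kmt2e and Setd1a were above 0 with upper-quartile factors, and Kmt2b, Kmt2e and Setd1a were above 0 in some fits that left out 1 library. Kmt2d encodes a methyltransferase of enhancers and lies on chromosome 15 from 98831669 to 98874077. It was at 176 and 189 CPM in the controls and at 173 and 161 CPM in the cKO, with both cKO libraries below both controls (-0.13, 95% interval -0.26 to 0.01, edgeR adjusted p = 0.325). Its close relative Kmt2c was at 132 and 137 CPM in the controls and at 127 and 120 CPM in the cKO (-0.12, -0.25 to 0.01, adjusted p = 0.308). Kmt2a, known for maintaining Hox gene expression, had a log2 fold change of -0.09 (-0.19 to 0.01), with 283 and 282 CPM in the controls and 266 CPM in both cKO libraries. For these 3 genes the groups did not overlap. They overlapped for Kmt2b (-0.04), Setd1b (-0.08), Setd1a and Kmt2e, and the last 2 differed by less than 0.01.

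Setd1a and Setd1b encode the enzymes that place most of the K4 trimethylation in a cell, and Kmt2e is named with the family although its protein is not thought to methylate K4 itself. Among the 6 enzymes other than Kmt2e, Setd1a had the highest RPKM in every library, with 24.9% to 27.5% of their sum. Of its exon bases, 59.8% are shared with other genes in GENCODE M21, mostly with Gm49388 on the same strand. Kmt2c and Kmt2d held 9.89% to 10.9% each.

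The shared subunits of COMPASS had log2 fold changes from -0.08 to 0.08, and 0 of 6 was called. Wdr5, Rbbp5, Ash2l and Dpy30 form the module that activates each of the methyltransferases. Wdr5 was at 150 and 145 CPM in the controls and at 146 and 148 CPM in the cKO (log2 fold change -0.01, 95% interval -0.12 to 0.11). Ash2l was at 168 and 159 CPM in the controls and at 163 CPM in both cKO libraries, with an interval of -0.12 to 0.12 around 0. The groups overlapped for both genes. Rbbp5 had a log2 fold change of 0.07 (95% interval -0.07 to 0.21) at 89.7 and 86.5 CPM in the controls and 95.5 and 89.4 CPM in the cKO. Dpy30 had one of 0.08 (-0.09 to 0.25), and Men1, the partner of Kmt2a and Kmt2b, one of 0.04 (-0.09 to 0.17). Paxip1, the partner of Kmt2c and Kmt2d, was at 123 and 127 CPM in the controls and at 116 and 120 CPM in the cKO (-0.08, -0.21 to 0.04, edgeR adjusted p = 0.472). Of the 6, Paxip1 alone had groups that did not overlap, with the cKO lower. Per length Dpy30, Wdr5 and Ash2l lay between 46.5 and 55.6 RPKM on average, above all 7 genes of the methyltransferase group. Of these 7, Kmt2e had the highest mean at 22.9 RPKM and Setd1a the next at 22. Of the exon bases of Kmt2e, 13.4% are shared with Srpk2 on the opposite strand.

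The Kdm5 genes, the K4 demethylases among the members, had log2 fold changes from 0.01 to 0.03, and 0 of 3 was called. Kdm5c, on chromosome X, was at 339 and 340 CPM in the controls and at 339 and 344 CPM in the cKO, with a 95% interval of -0.09 to 0.11. Kdm5b was at 195 and 203 CPM in the controls and at 209 and 198 CPM in the cKO (0.03, -0.09 to 0.15). Kdm5a was at 131 CPM in both controls and at 131 and 135 CPM in the cKO (0.02, -0.1 to 0.14). Kdm5c held 59.4% to 60.4% of the summed RPKM of the 3 genes. The ratio of the 6 methyltransferases to the 3 demethylases, from summed RPKM, was 0.97 and 0.99 in the controls and 0.941 and 0.918 in the cKO. Both cKO values were lower. The ratio is given as a description, with no test.

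Rbbp7, Kdm6a and Kdm5c lie on chromosome X, so genes that tell the sexes apart were read beside them. The Y-linked relatives of Kdm6a and Kdm5c, Uty and Kdm5d, had 0 counts in all 4 libraries, which allows up to 0.175 to 0.181 CPM per library (3 counts, counting error only). The Y-linked gene Ddx3y had 1 count, in cKO replicate 1, and Eif2s3y had 1 count, in control replicate 1. Xist, expressed from the inactive X, was at 1780 and 1830 CPM in the controls and at 1920 and 1650 CPM in the cKO. By these genes all 4 libraries, in both groups, had the pattern of female tissue.

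Of the other genes of these pathways, 56 of 57 in the table passed the count filter, and 1 was called higher and 0 lower. At an unadjusted p under 0.05 (edgeR) there were 8 (14.3%), of which 7 were lower. Over all genes tested, 3.7% were called and 17.5% had an unadjusted p under 0.05, 1295 of them lower and 1200 higher. The gene called was Epop, which encodes a partner of PRC2 found in the assemblies with Polycomb-like proteins. Epop lies on chromosome 11 from 97627387 to 97629716 and was at 43.4 and 49.6 CPM in the control libraries and 62.9 and 61 CPM in the cKO libraries. Both cKO values lay above both controls, with a 1.33-fold difference (log2 fold change 0.41, SE 0.08, edgeR adjusted p = 0.0417). Epop was no longer called when control replicate 1 was left out (0.32, edgeR adjusted p = 0.127). The same held on leaving out cKO replicate 1 (0.39, 0.139) or cKO replicate 2 (0.44, 0.143), and with the replicate number as a block (0.42, 0.0799). The authors' deposited table gave it a log2 fold change of 0.41 and an adjusted p of 0.028. The neuronal and erythroid markers given above were lower in the same libraries, and their part in this value was not tested.

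Of the pathway genes just outside the threshold, the 3 with the next smallest adjusted p are given here, chosen after their values were seen. Kat6b, which encodes a histone acetyltransferase counted with the Trithorax group, was at 121 and 87.5 CPM in the controls and at 71.3 and 61.2 CPM in the cKO. Its cKO libraries were below both controls, but the controls differed by more than the nearer groups did (log2 fold change -0.65, SE 0.15, edgeR adjusted p = 0.0581). It was called without control replicate 2 (-0.87, adjusted p = 0.000803) and with the replicate block (-0.64, 0.0207), but not without control replicate 1 (-0.4, 0.0994), cKO replicate 1 (-0.77, 0.0789) or cKO replicate 2 (-0.55, 0.241). The authors' deposited table gave -0.66 with an adjusted p of 0.000171, while DESeq2 run here on the deposited counts gave 0.148. Kdm1b, which encodes a demethylase of mono- and dimethylated K4, was at 46.8 and 48 CPM in the controls and at 38.5 and 38.7 CPM in the cKO, with both cKO libraries lower (-0.3, SE 0.07, edgeR adjusted p = 0.0769). Its adjusted p ranged from 0.17 to 0.273 when 1 library was left out. Fbrsl1, of the Auts2 family that joins some PRC1 assemblies, was at 83.5 and 72 CPM in the controls and at 62.7 and 61.3 CPM in the cKO (-0.33, adjusted p = 0.0796), with both cKO libraries lower. It was called without control replicate 2 (-0.43, edgeR adjusted p = 0.0129), but not without control replicate 1 (-0.22, 0.273), cKO replicate 1 (-0.34, 0.19) or cKO replicate 2 (-0.31, 0.297), nor with the block (-0.32, 0.0984).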

How the data were processed

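Raw read counts per gene were deposited for 4 libraries. Per the file headers they were made with featureCounts 2.0.1 from paired-end reads over exons of a RefSeq annotation of mm10, with no strand option. The submitters' processing notes also name HISAT2 and DESeq2. The authors' deposited table holds log2 fold changes with standard errors and p-values, used only where it is named. Columns of counts without a sample numbered 0.

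Genes were filtered with filterByExpr (minimum count 10), scaled by TMM and tested with edgeR 4.0.16 (R 4.3.3), without covariates, adjusted over all 14235 genes. The SE is the log2 fold change over the root of F, and intervals are 95%, not adjusted for the number of genes tested. Total counts of 16581252 to 17096522 gave a common coefficient of biological variation of 0.0785. Replicates of a group differed beyond sampling noise (chi-square per degree of freedom 4.78 and 4.07). The edgeR step was tested on simulated data.

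RPKM used exon lengths of GENCODE M21 transcripts paired with RefSeq, which may differ from the authors' models. Exons of 14 members overlap another gene, 5 of them over more than 10% of bases. Positions are from RefSeq (GRCm38.p6).

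Alternatives were DESeq2 1.42.0 (size factors, Wald test), upper-quartile factors, limma-voom (limma 3.58.1), other count filters, a replicate block, each library left out, and erythroid genes removed. The members and lists were chosen with earlier results of these data known. By rule every member is named, and the 2 with the smallest p in each complex and 9 fixed genes have their values in every library, of which 1 is not reported here. Plots used matplotlib 3.10.9.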

Additional observations from a re-analysis of the deposited data

How the results depend on the processing

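The count of called members was 0 in each direction under all 12 alternatives (a mean of at least 5 CPM leaves Phf19 untested), and 455 of 455 values of single members stayed uncalled. Of these, 29 changed sign, in 16 members whose value was at most 0.09 in size (Ezh1, Eed, Suz12, Rbbp4, Ring1, Cbx2, Phc1, Kdm6a, Kmt2b, Kmt2e, Setd1a, Wdr5, Ash2l, Men1, Kdm5a and Kdm5b). The members' median moved from -0.002 to 0.012 with upper-quartile factors, 0.004 without control replicate 1 and 0.002 without cKO replicate 1. Over all genes tested the median moved from 0 to 0.014, 0.005 and -0.003 under the same settings. Among all genes, 223 were higher and 303 lower. With the replicate number as a block the numbers were 137 and 211, and leaving out 1 library gave 80 to 351 higher and 131 to 418 lower. Among the other pathway genes the block left 0 called higher and 1 lower, and leaving out 1 library gave 0 to 1 higher and 0 to 2 lower. The labels give both groups the same replicate numbers, but deviations of same-numbered libraries had a correlation of -0.053 across genes, which are not independent, so the numbers were not taken as pairs. When a group is down to 1 library, its spread is taken from the other group. Depth limits Phf19, Phf1, Cbx7, Cbx8 and Ezh1, all under 20 CPM.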
